A study of Mus musculus with 16 samples.

Results

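The Toll-like receptors and their partner proteins were followed through 10 genes, taken by name: Ly86, Cd180, Ly96, Tlr1, Tlr2, Tlr4, Tlr6, Tlr7, Tlr9 and Unc93b1. They were found through the transcript accessions of the array's probes, 11 probes in all, among 20284 gene symbols with a probe. The study used 16 arrays with 1 sample each, in 8 groups of 2, and each group had 1 array from each of 2 independent experiments. The sorted bone marrow cells were monocyte-dendritic cell progenitors (MDPs) and the later common monocyte progenitors (cMoPs). Both were taken from wild-type mice (WT) and from mice without Irf8 (Irf8KO). The age and sex of the mice, any pooling of them and the kind of Irf8 allele are not given in the sources used here. The cultured cells were 32Dcl.3, a mouse myeloid progenitor line, and all 4 groups of them had been infected with a pair of MSCV retroviruses, 1 marked by hCD8t and 1 by puro. The pair was empty, or carried mouse C/EBPalpha in the puro vector, mouse IRF8 in the hCD8t vector, or both, and RNA was taken on day 3. Nothing in the labels says that the cells of a group came from different animals or separate infections beyond the experiment number, so p-values measure the spread between these arrays.

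Toll-like receptors bind microbial products at the cell surface or in endosomes and start inflammatory signalling through adaptors such as MyD88. TLR4 binds lipopolysaccharide together with the small secreted protein MD-2, encoded by Ly96. CD180, also called RP105, resembles TLR4 outside the cell but lacks its signalling domain, and it reaches the surface with MD-1, encoded by Ly86, a relative of MD-2. TLR2 pairs with TLR1 or TLR6 to bind lipoproteins, TLR7 and TLR9 sense nucleic acids in endosomes, and UNC93B1 carries the endosomal receptors there from the endoplasmic reticulum. IRF8 is a transcription factor known for its part in monocyte and dendritic cell development, and C/EBPalpha one known for its part in granulocyte development.

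The sequence before the start of transcription is shown for Ly86, Cd180, Tlr6 and Tlr9. This sets Ly86, the gene with the largest change of the 10 in progenitors, and its receptor Cd180 beside 2 receptors whose upstream sequence held a searched motif. The sequences are the 250 bases before the start in the RefSeq promoter table (GRCm38.p6), read 5′ to 3′ on the gene's strand, with motif matches in capitals. They lie at chr13:37345095-37345344 (plus strand) for Ly86, chr13:102693297-102693546 (plus) for Cd180, chr5:64959167-64959416 (minus) for Tlr6 and chr9:106222348-106222597 (plus) for Tlr9.
Ly86: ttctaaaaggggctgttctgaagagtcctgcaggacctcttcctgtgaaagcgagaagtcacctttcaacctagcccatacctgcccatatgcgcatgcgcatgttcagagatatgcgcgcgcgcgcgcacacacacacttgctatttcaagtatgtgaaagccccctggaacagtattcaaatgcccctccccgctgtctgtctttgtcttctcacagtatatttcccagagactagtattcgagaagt
Cd180: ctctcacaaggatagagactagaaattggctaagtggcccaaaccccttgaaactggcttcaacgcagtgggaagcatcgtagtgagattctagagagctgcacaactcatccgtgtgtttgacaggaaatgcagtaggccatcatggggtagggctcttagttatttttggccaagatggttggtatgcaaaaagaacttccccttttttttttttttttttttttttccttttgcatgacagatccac
Tlr6: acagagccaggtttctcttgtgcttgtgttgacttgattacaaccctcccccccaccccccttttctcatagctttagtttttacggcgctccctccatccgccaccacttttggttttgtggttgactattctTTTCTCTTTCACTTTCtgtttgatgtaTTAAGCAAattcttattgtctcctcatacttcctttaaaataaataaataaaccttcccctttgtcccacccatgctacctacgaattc
Tlr9: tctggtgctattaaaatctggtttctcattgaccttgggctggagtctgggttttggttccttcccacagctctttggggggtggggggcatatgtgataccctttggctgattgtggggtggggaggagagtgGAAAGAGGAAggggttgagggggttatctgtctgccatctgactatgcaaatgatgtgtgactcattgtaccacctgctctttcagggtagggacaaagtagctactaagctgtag

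The motifs searched on both strands were the Ets-IRF composite GGAANNGAAA, the reverse order GAAANNGGAA, the interferon response type GAAANNGAAA and the C/EBP type TTGCNNAA. Of the 10 genes 6 had a window in the table, 9 windows in all, and 2 of these 9 held a match. Tlr6 held 2 overlapping matches to GAAANNGAAA, whose far ends lay 116 and 110 bases before the start, and 1 to TTGCNNAA with its far end 89 bases before it, all on the opposite strand. Tlr9 held 1 match to GAAANNGGAA on its own strand, with the far end 116 bases before its start. Over all 32851 windows of that length in the table, matches to the 4 motifs in the order given were in 2.3%, 2.3%, 2.98% and 9.56%. The share of windows with a match to any of the 4 was not counted, so the 2 of 9 has no like share beside it. These are matches of letters and were not tested for binding. The windows of Ly86, Cd180, Tlr1 and Tlr2 and the other window of Tlr6 held none of these letters.

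Levels are given as scaled signal, the background-subtracted signal of a probe divided by the 75th percentile of all probes on its array. They were compared between groups of 1 gene, not between genes. The 75th percentile itself ranged from 67.8 to 81.0 over the MDP arrays, from 455.6 to 568.1 over those of cMoPs and from 147.3 to 460.2 in 32Dcl.3 cells, where it was lower with C/EBPalpha. Changes are differences of mean log2 scaled signal with the standard error (SE) of the limma fit over all genes of a system, and a gene rose or fell where limma's Benjamini-Hochberg adjusted p was under 0.05. Each cell type had its own slide, so contrasts were drawn within slides, and position on a slide followed genotype or vector, so that these cannot be told apart. The difference in the Irf8KO effect between stages sets the MDP slide against the cMoP slide. Stage and slide cannot be told apart in it. All 10 genes passed the filter on dim probes in progenitors and 8 in 32Dcl.3 cells, where Ly86 and Tlr1 did not. The single Irf8 probe changed by -0.55 ± 0.036 (SE) in Irf8KO MDPs and by -1.48 ± 0.036 in Irf8KO cMoPs and stayed well above background there. Neither the Irf8 nor the Cebpa probe was above background on any 32Dcl.3 array, so the arrays did not check which cells carried the transduced factors. All 5 markers of early progenitors (Kit, Flt3, Csf1r, Cx3cr1 and Cd34) were well above background on every MDP and cMoP array. They moved with genotype: 3 rose and 2 fell in Irf8KO MDPs, where their summed scaled signal was 390 to 393 against 459 to 461 in WT, and 1 rose and 4 fell in Irf8KO cMoPs, where it was 108 to 110 against 226 to 230. Cd34 had a mean of 85.3 in WT and 13.1 in Irf8KO cMoPs and Cx3cr1 of 10.1 and 2.61, and their part in the changes of the 10 genes was not tested. Of 5 markers of the 32Dcl.3 line, Mpo, Elane, Prtn3 and Ctsg were above background on all its arrays and Kit on none. In a bulk sample fewer cells of a type and less RNA per cell cannot be told apart.

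Ly86, the MD-1 gene, fell in both Irf8KO progenitors to a small share of its WT signal, while no change of its receptor gene Cd180 passed the test. In WT MDPs Ly86 was at 89.3 and 95.3 times the array's 75th percentile, and in Irf8KO MDPs at 0.212 and 0.258. The difference was -8.62 ± 0.16 (SE, 2 arrays per group, adjusted p = 7.7e-11), 394-fold, with both arrays of each group well above background. The processed Ly86 signals on the Irf8KO MDP arrays were 14.9 and 17.5. These were near the lowest signals well above background on the same arrays, 11.8 and 10.9, and the size of the fold rests on them. In cMoPs the scaled signal was 70.9 and 69.6 in WT against 0.0630 and 0.0967 in Irf8KO, where neither array was well above background, so Ly86 was at least 605-fold lower (adjusted p = 1.8e-11). That bound sets the WT mean against the fainter group's signal raised, on each array, to the lowest signal of any probe above background where this was higher. It is not a limit of the probe itself, as undetected spots can lie above that floor. Cd180 on WT MDP array 1 did, with a processed signal of 10.96 against 10.05. Each fold given here or below as at least a value holds for that floor. The Ly86 groups were apart by far more than their arrays differed.

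Cd180, the receptor that MD-1 accompanies, was close to background in progenitors. Its scaled signal was 0.143 and 0.176 in WT MDPs and 0.145 and 0.198 in Irf8KO MDPs, with 1 array of each group well above background and the groups overlapping. The change was 0.09 ± 0.27 (95% interval -0.51 to 0.70, adjusted p = 0.80), an interval that holds changes in both directions. In WT cMoPs Cd180 was at 0.163 and 0.151 and in Irf8KO cMoPs at 0.0949 and 0.108, with neither Irf8KO array above background. These groups did not overlap, yet the change of -0.63 ± 0.27 did not pass (adjusted p = 0.075, 95% interval -1.23 to -0.02). With each slide fitted alone the same change passed (adjusted p = 0.029), as it did after scaling to the array median (-0.94, adjusted p = 0.0090), after quantile normalization (-0.89), without the intensity trend and without Irf8KO MDP array 1 (adjusted p = 0.0499).

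**Figure D1:**
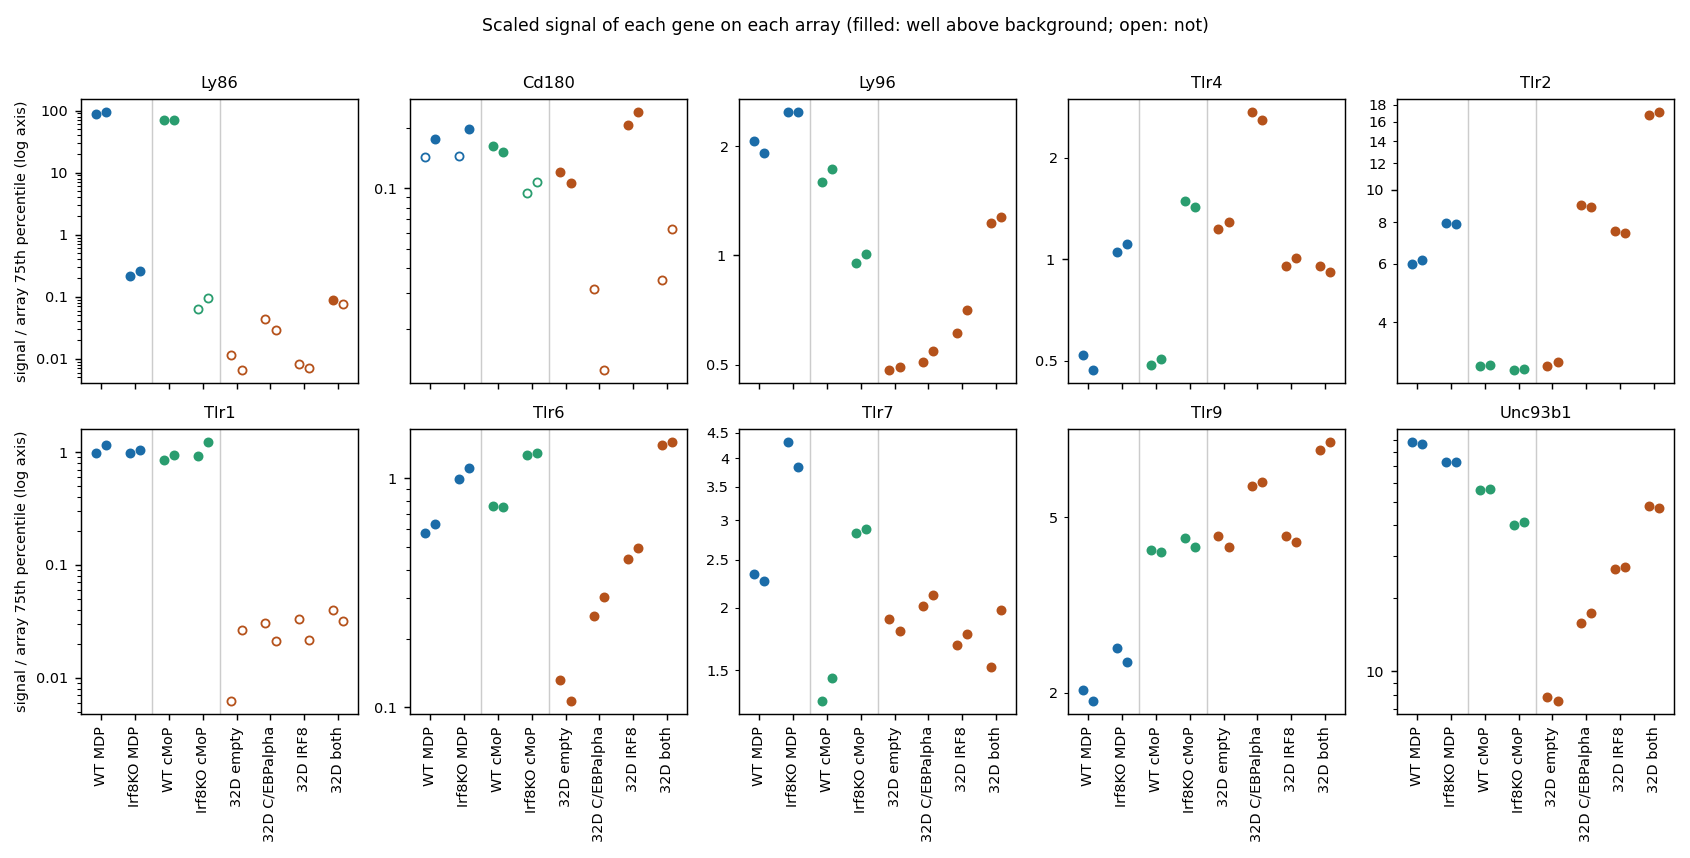
Scaled signal (signal over the array's 75th percentile, log axis) of the 10 genes on each of the 16 arrays, in 8 groups of 2; filled points are well above background and open points are not. Ly86 stands at 69.6 to 95.3 on the 4 WT arrays and at 0.258 or lower on the others, while Tlr4, Tlr6 and Tlr7 are higher on Irf8KO than on WT arrays of the same slide.

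Ly96, the MD-2 gene, rose in Irf8KO MDPs and fell in Irf8KO cMoPs. It was at 2.07 and 1.92 in WT MDPs and at 2.48 and 2.49 in Irf8KO MDPs, a rise of 0.32 ± 0.076 (adjusted p = 0.0056) that did not pass after scaling to the array median (0.23, adjusted p = 0.082). In cMoPs it was at 1.59 and 1.73 in WT and at 0.951 and 1.01 in Irf8KO, a fall of -0.76 ± 0.076 (adjusted p = 1.3e-05). The Irf8KO effect differed between the stages by -1.08 ± 0.11 (adjusted p = 6.4e-05).

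Tlr4, the receptor that MD-2 completes, rose in both Irf8KO progenitors. Its scaled signal went from 0.518 and 0.467 to 1.05 and 1.11 in MDPs (1.13 ± 0.10, adjusted p = 8.2e-06) and from 0.484 and 0.506 to 1.48 and 1.42 in cMoPs (1.55 ± 0.10, adjusted p = 4.6e-07). All Irf8KO arrays were above all WT arrays of their slide. The difference between the stages was 0.42 ± 0.14 and did not pass (adjusted p = 0.055), though it did under 6 alternatives, among them quantile normalization (0.62, adjusted p = 0.0069).

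A ratio of 2 genes within an array does not depend on how the array was scaled. The mean log2 signal of Ly86 and Cd180 minus that of Ly96 and Tlr4 changed by -4.99 from WT to Irf8KO MDPs, with the 4 pairs of arrays between -5.32 and -4.66. In cMoPs the change was -5.62 (-5.89 to -5.35), or -5.24 with undetected groups at their bound. In MDPs the ratio of Ly86 to Ly96 changed by -8.94, that of Cd180 to Tlr4 by -1.04 and that of Ly86 to its own receptor Cd180 by -8.71. Cd180 was well above background on only 1 array of each MDP group. The MDP values that include it, -4.99, -1.04 and -8.71, thus rest partly on undetected signal. In Irf8KO cMoPs neither Ly86 nor Cd180 was above background, and with both at their bound Ly86 to Ly96 changed by -8.48 and Cd180 to Tlr4 by -1.99. These falls are not limits. Under normexp background correction Ly86 and Cd180 against Ly96 and Tlr4 changed by -4.375 in cMoPs, a smaller fall than -5.24. In MDPs the change under it was -3.53, a smaller fall than -4.99. No value is given for Ly86 to Cd180 in cMoPs. Within the other pair, Ly96 against Tlr4 changed by -0.81 in MDPs (-0.87 to -0.76) and by -2.31 in cMoPs (-2.41 to -2.21). These ratios are descriptions and were not tested.

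**Figure D2:**
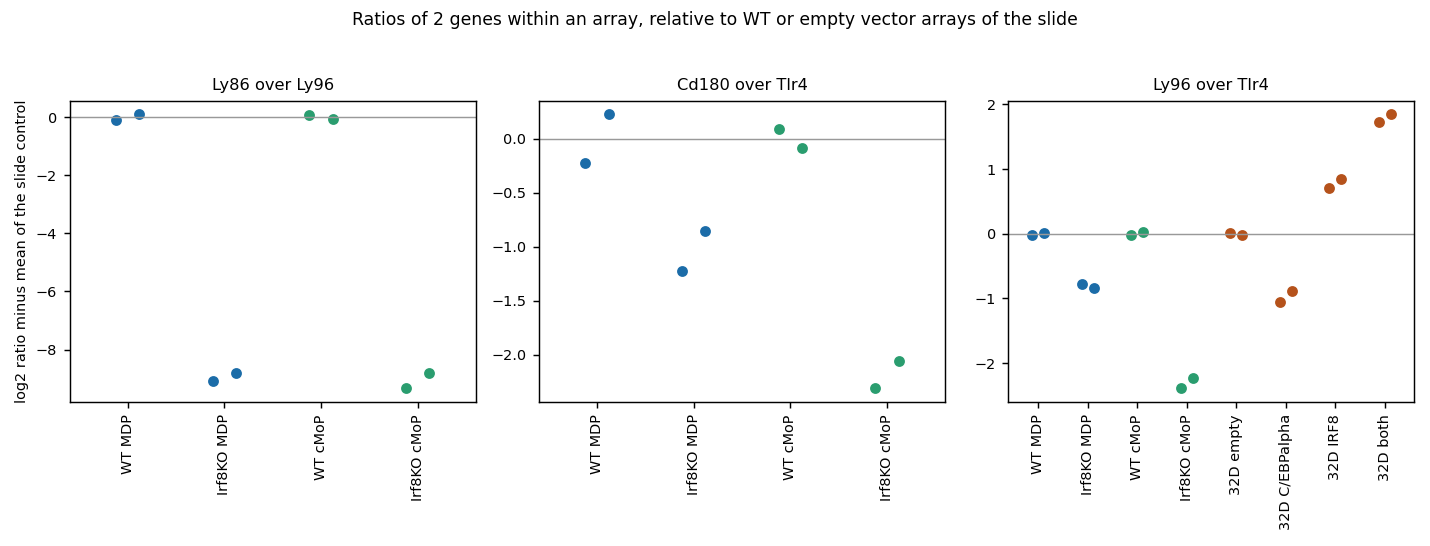
Log2 ratios of 2 genes within each array, minus the mean of the WT or empty vector arrays of the same slide, for Ly86 over Ly96, Cd180 over Tlr4 (progenitors) and Ly96 over Tlr4 (all 16 arrays). On the 2 Irf8KO MDP arrays Ly86 over Ly96 lies at -9.08 and -8.80. On the Irf8KO cMoP arrays Ly86 and Cd180 were not above background, so their points there rest on undetected signal. The same holds for the Cd180 points of WT MDP array 1 and Irf8KO MDP array 1. In 32Dcl.3 cells Ly96 over Tlr4 is lower with C/EBPalpha and higher with IRF8 or both factors than with empty vectors.

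The changes of the lipoprotein receptors were smaller than those of Ly86 and Tlr4. Tlr2 was at 5.98 and 6.15 in WT MDPs and at 7.98 and 7.90 in Irf8KO MDPs, a rise of 0.39 ± 0.044 (adjusted p = 5.0e-05). In cMoPs its change was -0.04 ± 0.044 (95% interval -0.14 to 0.05, adjusted p = 0.43), with WT at 2.96 and 2.99 and Irf8KO at 2.87 and 2.89, but -0.36 (adjusted p = 0.00046) after scaling to the array median. The difference between the stages was -0.43 ± 0.063 (adjusted p = 0.00072). Tlr6, which pairs with TLR2, rose from 0.580 and 0.636 to 0.995 and 1.11 in MDPs (0.79 ± 0.099, adjusted p = 8.8e-05) and from 0.759 and 0.75 to 1.26 and 1.29 in cMoPs (0.76 ± 0.099, adjusted p = 8.8e-05). Tlr1, the other partner of TLR2, showed no change past the threshold. Its scaled signal was 0.979 and 1.15 against 0.977 and 1.04 in MDPs (-0.07 ± 0.14, 95% interval -0.38 to 0.24) and 0.855 and 0.945 against 0.922 and 1.23 in cMoPs (0.24 ± 0.14, -0.07 to 0.55), and without Irf8KO cMoP array 1 the latter became 0.45 (adjusted p = 0.026).

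Of the endosomal receptors, Tlr7 rose in both Irf8KO progenitors, while Tlr9 rose in Irf8KO MDPs and its change in cMoPs did not pass the test. Tlr7 went from 2.34 and 2.27 to 4.31 and 3.83 in MDPs (0.82 ± 0.075, adjusted p = 1.0e-05) and from 1.30 and 1.45 to 2.83 and 2.89 in cMoPs (1.06 ± 0.075, adjusted p = 9.1e-07). Tlr9, which senses CpG DNA, was at 2.02 and 1.92 in WT MDPs and at 2.53 and 2.34 in Irf8KO MDPs (0.31 ± 0.060, adjusted p = 0.0018, and 0.21 with adjusted p = 0.065 after scaling to the array median). In cMoPs, at 4.22 and 4.16 in WT and 4.48 and 4.28 in Irf8KO, Tlr9 changed by 0.06 ± 0.060 (95% interval -0.07 to 0.20, adjusted p = 0.40), or by -0.25 (adjusted p = 0.020) after scaling to the array median. Unc93b1, the carrier of these receptors, fell from 88.0 and 86.0 to 73.2 and 72.8 in MDPs (-0.25 ± 0.032, adjusted p = 0.00010) and from 55.9 and 56.5 to 40.2 and 41.1 in cMoPs (-0.47 ± 0.032, adjusted p = 7.5e-07). The stage difference of Unc93b1 was -0.21 ± 0.046 (adjusted p = 0.0075) and did not pass under normexp background correction (-0.15, adjusted p = 0.090).

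In Irf8KO MDPs 6 of the 10 genes thus rose and 2 fell (median change 0.31), against 22.8% and 28.6% of 11964 genes tested (median -0.025). In Irf8KO cMoPs 3 rose and 3 fell (median 0.0100), against 23% and 31.1% of all genes (median -0.025). Scaled to the array median, 4 rose and 2 fell in MDPs (13.2% and 32.8% of all genes) and 3 rose and 6 fell in cMoPs (9.15% and 58.8%), where Cd180, Tlr2 and Tlr9 were the added falls. The Irf8KO effect was higher in cMoPs for 0 and lower for 4 of the 10 genes, Ly86, Ly96, Tlr2 and Unc93b1, against 11.6% and 13.2% of all genes. At an unadjusted p under 0.05 in limma it was higher for 2, Tlr4 and Tlr7, and lower for 5, the 4 named and Tlr9. Of all 11964 genes, 4462 passed that unadjusted threshold in either direction. For Tlr7 the stage difference was 0.24 ± 0.11 (adjusted p = 0.13). It passed under alternatives such as quantile normalization (0.36, adjusted p = 0.027) and normexp (0.31, adjusted p = 0.024). The other Tlr7 probe, described below, gave 1.40 ± 0.33 (adjusted p = 0.012), with no WT array above background. For Tlr9 the stage difference of -0.24 ± 0.085 (adjusted p = 0.063) passed when scaled to the array median (-0.46, adjusted p = 0.0081), without WT MDP array 1 (-0.28, adjusted p = 0.043) and without Irf8KO MDP array 2 (-0.30, adjusted p = 0.037). Over all genes, scaling to the array median gave 4.15% higher and 30.6% lower, and normexp gave 3 higher and 3 lower among the 10. For Ly86 that difference, -1.19 ± 0.23 (adjusted p = 0.0038), rests on Irf8KO cMoP arrays where it was not above background.

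**Figure D3:**
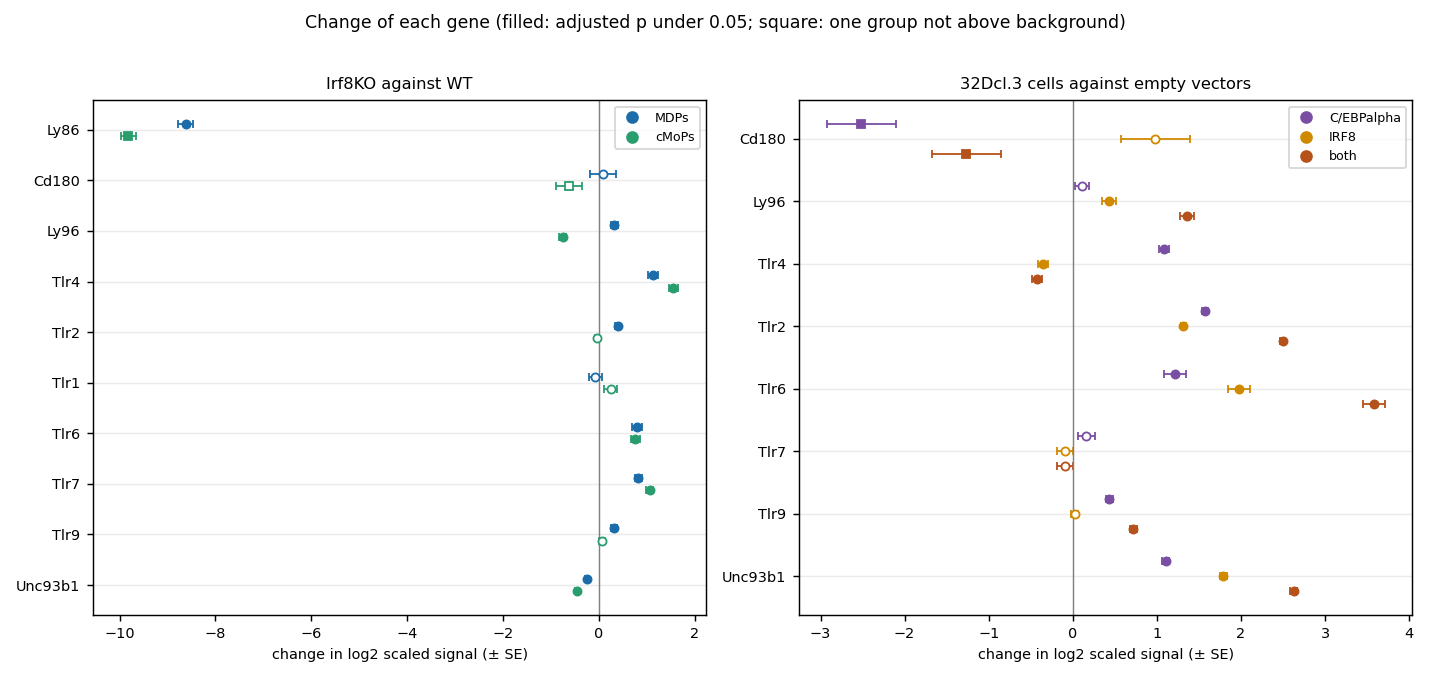
Change in log2 scaled signal with its SE for each gene in Irf8KO against WT progenitors and in transduced against empty vector 32Dcl.3 cells; filled symbols have an adjusted p under 0.05 and squares mark genes not above background in 1 of the groups. Ly86 is at -8.62 and -9.81 while the other genes lie between -0.76 and 1.55 in progenitors, and Tlr6, Unc93b1 and Tlr2 reach 3.58, 2.63 and 2.50 with both factors.

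In 32Dcl.3 cells the Ly86 probe was not above background with empty vectors, C/EBPalpha or IRF8. With both factors 1 of 2 arrays was well above background, at 0.0892, and the other, at 0.0772, was not. Its scaled signal was 0.0114 and 0.00648 with empty vectors, 0.0433 and 0.0287 with C/EBPalpha and 0.00831 and 0.00706 with IRF8. The processed signals behind the Ly86 values were 13.7 and 11.4 with both factors and 2.60 to 9.45 on the other 6 arrays, so no change was computed. Tlr1 was not above background on any of the 8 arrays, at 0.00627 to 0.0400.

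Cd180 was above background with empty vectors and with IRF8 and not with C/EBPalpha. Its scaled signal was 0.12 and 0.106 with empty vectors, 0.207 and 0.24 with IRF8, 0.0315 and 0.0124 with C/EBPalpha, and 0.0351 and 0.0627 with both factors. Neither group with C/EBPalpha overlapped a group without it. With C/EBPalpha Cd180 was at least 2.11-fold lower than with empty vectors (adjusted p = 0.00012), and with both factors at least 3.21-fold lower than with IRF8 (adjusted p = 0.00028) and at least 1.62-fold lower than with empty vectors (adjusted p = 0.012). The fall with both factors against empty vectors did not pass without array 1 of the cells with both factors (-0.85, adjusted p = 0.11) or without empty vector array 1 (-1.18, adjusted p = 0.0625), nor without the intensity trend (adjusted p = 0.0543). Under normexp background correction Cd180 moved by 0.13 with C/EBPalpha (adjusted p = 0.15) and rose by 0.56 with both factors (adjusted p = 1.0e-05), so the direction of both turned with the background correction. That correction adds an offset of 50. The processed Cd180 signals were 55.2 and 47.3 with empty vectors, 6.87 and 2.66 with C/EBPalpha and 5.39 and 9.23 with both factors. The part of the offset in the turn was not tested. Both factors against IRF8 gave -0.08 under it (adjusted p = 0.38). With IRF8 alone Cd180 changed by 0.98 ± 0.41, which did not pass (adjusted p = 0.069), and passed under 4 alternatives at 0.64 to 1.02. Both factors against C/EBPalpha gave 1.25 ± 0.41 (adjusted p = 0.016), but neither group was above background and the call was lost under 6 alternatives, so no fold is given. The order of the 4 groups turned with the background correction.

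Ly96 rose with IRF8 and further with both factors, while Tlr4 rose with C/EBPalpha and fell with IRF8. Ly96 was at 0.482 and 0.494 with empty vectors, 0.509 and 0.545 with C/EBPalpha, 0.609 and 0.706 with IRF8 and 1.23 and 1.28 with both factors. It rose by 0.43 ± 0.085 with IRF8 (adjusted p = 0.0014) and by 1.36 ± 0.085 with both (adjusted p = 1.4e-08), and its change with C/EBPalpha was 0.11 ± 0.085 (95% interval -0.08 to 0.30, adjusted p = 0.25), which passed at 0.32 with the percentile over detected probes and at 0.17 under normexp. No 2 of its groups overlapped. The IRF8 by C/EBPalpha interaction, the change with IRF8 in the presence of C/EBPalpha minus that in its absence, was 0.82 ± 0.12 (adjusted p = 0.00012). Both factors exceeded C/EBPalpha by 1.25 ± 0.085 (adjusted p = 7.0e-08) and IRF8 by 0.93 ± 0.085 (adjusted p = 6.6e-07).

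Tlr4 was at 1.22 and 1.28 with empty vectors, 2.73 and 2.58 with C/EBPalpha, 0.956 and 1.01 with IRF8 and 0.951 and 0.913 with both factors. It rose by 1.08 ± 0.060 with C/EBPalpha (adjusted p = 6.0e-09) and fell by 0.35 with IRF8 (-0.35 ± 0.060, adjusted p = 0.00045). With both factors it differed by -1.51 ± 0.060 from C/EBPalpha alone (adjusted p = 5.0e-10) and by -0.43 ± 0.060 from empty vectors (adjusted p = 2.8e-05, or -0.11 with adjusted p = 0.089 when the percentile was taken over probes detected on all arrays). The interaction was -1.16 ± 0.084 (adjusted p = 3.6e-07). Against IRF8 alone, both factors gave -0.08 ± 0.060 (95% interval -0.21 to 0.06), which was 0.25 (adjusted p = 0.0017) with the percentile over detected probes and -0.77 (adjusted p = 9.1e-09) with the array median. Within arrays, the log2 ratio of Ly96 to Tlr4 changed by -0.97 with C/EBPalpha (4 pairs of arrays, -1.08 to -0.86), by 0.78 with IRF8 (0.70 to 0.87) and by 1.79 with both factors (1.71 to 1.87), and it was 2.76 higher with both than with C/EBPalpha (2.61 to 2.91).

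Tlr2, Tlr6 and Unc93b1 rose with each factor and most with both. Tlr2 was at 2.97 and 3.05 with empty vectors, 9.0 and 8.87 with C/EBPalpha, 7.51 and 7.44 with IRF8 and 16.8 and 17.1 with both factors. The rises were 1.57 ± 0.033, 1.31 ± 0.033 and 2.50 ± 0.033 (adjusted p = 1.4e-12, 2.9e-11 and 1.2e-14), and the interaction of -0.39 ± 0.046 (adjusted p = 2.2e-05) places the joint rise below the sum of the single ones on the log2 scale. Tlr6 was at 0.132 and 0.107, 0.250 and 0.305, 0.445 and 0.495, and 1.40 and 1.44 in the same order of groups. Its rises were 1.22 ± 0.13, 1.98 ± 0.13 and 3.58 ± 0.13 (adjusted p = 2.9e-06, 1.7e-07 and 6.9e-11), 11.9-fold with both factors. Its interaction, 0.38 ± 0.18, did not pass (adjusted p = 0.097) and did under 6 alternatives, at 0.38 to 0.64. Unc93b1 was at 7.81 and 7.58, 15.8 and 17.4, 26.5 and 26.8, and 47.8 and 47.3, with rises of 1.11 ± 0.041, 1.79 ± 0.041 and 2.63 ± 0.041 (adjusted p = 1.6e-10, 1.3e-11 and 4.8e-14) and an interaction of -0.27 ± 0.058 (adjusted p = 0.0020), which did not pass after quantile normalization (-0.15, adjusted p = 0.054) or on the deposited series values (-0.16, adjusted p = 0.068). For each of these 3 genes no 2 of the 4 groups overlapped.

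Tlr9 changed little and partly with the scaling. It was at 4.54 and 4.28 with empty vectors, 5.88 and 6.02 with C/EBPalpha, 4.54 and 4.40 with IRF8 and 7.09 and 7.40 with both factors. It rose by 0.43 ± 0.042 with C/EBPalpha (adjusted p = 1.1e-06) and by 0.72 ± 0.042 with both factors (adjusted p = 6.6e-09), and by 0.70 ± 0.042 from IRF8 to both (adjusted p = 1.1e-08). Scaled to the array median, these values were 0.13 (adjusted p = 0.056), 0.062 (adjusted p = 0.33) and 0.00067 (adjusted p = 0.99). Both factors against C/EBPalpha gave 0.28 ± 0.042 (adjusted p = 6.4e-05) and the interaction 0.26 ± 0.059 (adjusted p = 0.0026), which turned to -0.063 and -0.12 when scaled to the array median (adjusted p = 0.34 and 0.20). Its change with IRF8 alone was 0.02 ± 0.042 (95% interval -0.07 to 0.11).

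Tlr7 had 2 probes for the same transcript accession that disagreed. The brighter one, which stands for the gene above, was at 1.90 and 1.80 with empty vectors, 2.02 and 2.12 with C/EBPalpha, 1.68 and 1.77 with IRF8 and 1.52 and 1.98 with both factors. Against empty vectors its changes were 0.16 ± 0.096, -0.10 ± 0.096 and -0.09 ± 0.096, none past the threshold (adjusted p = 0.14, 0.45 and 0.39). The change with C/EBPalpha passed with the percentile over detected probes (0.37, adjusted p = 0.0038), after quantile normalization (0.25, adjusted p = 0.0498), on the deposited series values (0.25, adjusted p = 0.036) and without either array of the cells with both factors (0.16, adjusted p = 0.016 and 0.017). Both factors against C/EBPalpha gave -0.25 ± 0.096 (adjusted p = 0.033), which did not pass without C/EBPalpha array 1 (-0.29, adjusted p = 0.057), without C/EBPalpha array 2 (-0.22, adjusted p = 0.14) or without array 1 of the cells with both factors (-0.06, adjusted p = 0.39). Both factors against empty vectors gave -0.75 (adjusted p = 5.9e-08) scaled to the array median and 0.22 (adjusted p = 0.047) with the percentile over detected probes. The dimmer probe was not above background in WT MDPs (0.162 and 0.135) or WT cMoPs (0.0587 and 0.0339) and stood at 1.87 and 2.12 in Irf8KO MDPs and at 1.59 and 1.58 in Irf8KO cMoPs. It was thus at least 12.9-fold and at least 14.4-fold higher in Irf8KO MDPs and cMoPs (adjusted p = 5.5e-07 and 2.8e-08), against 1.76-fold and 2.08-fold by the brighter probe. With C/EBPalpha the dimmer probe was at 0.754 and 0.696 and with both factors at 0.193 and 0.197, while it was not above background with empty vectors (0.0243 and 0.0196) or IRF8 (0.00908 and 0.0228). It was at least 25.2-fold higher with C/EBPalpha and at least 6.79-fold higher with both factors than with empty vectors (adjusted p = 5.8e-08 and 4.0e-06), and lower with both than with C/EBPalpha by -1.89 ± 0.35 (adjusted p = 0.00047). The dimmer probe was set in place of the brighter one only after the disagreement was seen. Which transcripts each probe binds was not tested.

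**Figure D4:**
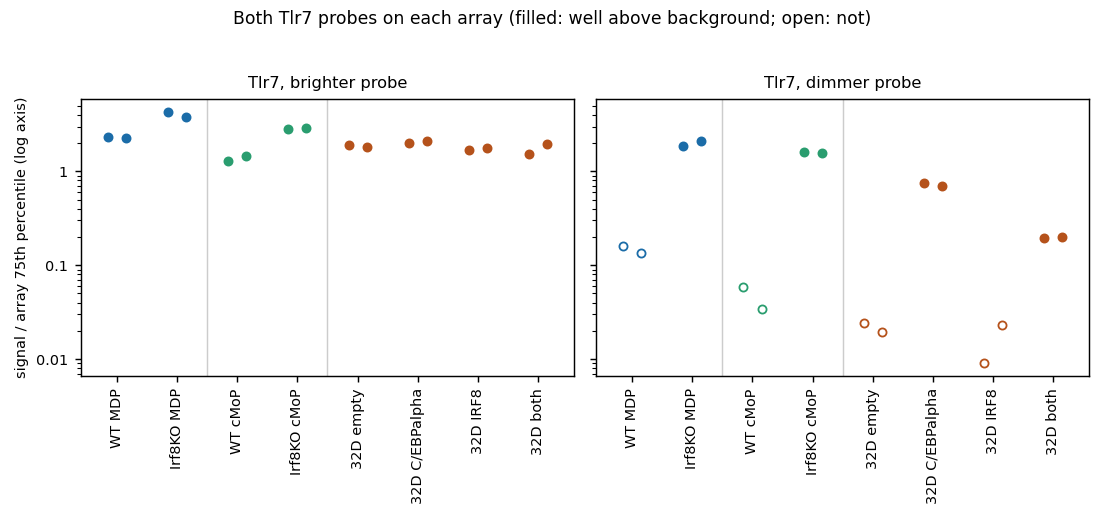
Scaled signal (log axis) of both Tlr7 probes on the 16 arrays; filled points are well above background. The brighter probe spans 1.30 to 4.31, while the dimmer probe is above background only in Irf8KO progenitors and in 32Dcl.3 cells with C/EBPalpha or both factors.

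By count, 5 of the 8 genes tested rose and 1 fell with C/EBPalpha, against 31.6% and 47.1% of 13339 genes (median change 0.76 against -0.14). With IRF8, 4 rose and 1 fell, against 22.7% and 25.3% (0.71 against -0.031), and with both factors 5 rose and 2 fell, against 38% and 46.8% (1.04 against -0.096). For both factors against C/EBPalpha 6 rose and 2 fell, against 34.5% and 37.9%, and against IRF8 5 rose and 1 fell, against 36.1% and 46.1%. The interaction was positive for 2, Ly96 and Tlr9, and negative for 3, Tlr2, Tlr4 and Unc93b1, against 23.8% and 31.8% of all genes. Scaled to the array median, the higher and lower counts were 4 and 1 with C/EBPalpha (20.1% and 59.5% of all genes), 5 and 1 with IRF8 (22.1% and 15.2%), 4 and 3 with both factors (18.7% and 66.5%), 5 and 2 for both against C/EBPalpha (14.9% and 58.5%), 4 and 3 for both against IRF8 (13.4% and 70%), and 1 and 4 for the interaction (5.88% and 57.7%). With the percentile over detected probes they were 7 and 1 with C/EBPalpha (42.1% and 37%), 6 and 1 with both factors (50% and 36.4%), 7 and 1 for both against IRF8 (51.2% and 33.5%) and 3 and 3 for the interaction (33.7% and 24.8%). These comparisons share arrays and are set side by side, not tested against each other. Scaling each array to its median moved the median change of all genes to -0.449 with C/EBPalpha, -0.752 with both factors, -0.784 for both factors against IRF8, -0.346 for both against C/EBPalpha, -0.402 for the interaction, -0.338 in Irf8KO cMoPs, -0.117 in Irf8KO MDPs and -0.229 for the stage difference. Taking the percentile over the 17685 probes detected on all arrays moved it to 0.219 (both factors) and to 0.24 (both against IRF8).

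Other genes of the pathway, 62 receptors, cofactors, proteases, adaptors, kinases, inhibitors and transcription factors, moved in both directions. In Irf8KO MDPs 17 of 52 tested rose and 13 fell, and in Irf8KO cMoPs 17 rose and 14 fell, with medians of 0.06 and -0.0047. The shares over all genes were 22.8% and 28.6% in MDPs and 23% and 31.1% in cMoPs. The Irf8KO effect was higher in cMoPs for 10 and lower for 11, against 11.6% and 13.2% of all genes. The total of these pathway genes came to 13 without WT cMoP array 1, 11 without WT cMoP array 2, 13 without Irf8KO cMoP array 1, 12 without the intensity trend and 13 without the filter. Irf7, a transducer of endosomal receptor signals to interferon genes, rose by 1.67 ± 0.22 in Irf8KO MDPs (adjusted p = 0.00014) and was at least 2.18-fold higher in Irf8KO cMoPs. Irf5, another such factor, fell by 1.73 in MDPs (-1.73 ± 0.083, adjusted p = 7.5e-08) and by 4.07 in cMoPs (-4.07 ± 0.083, adjusted p = 6.7e-11). Tlr12, which senses profilin, changed by -3.58 ± 0.18 in MDPs (adjusted p = 1.1e-07) and was at least 8.66-fold lower in cMoPs. Of the lysosomal proteases that trim endosomal receptors, Ctss fell by 1.42 in MDPs (-1.42 ± 0.038, adjusted p = 1.1e-09), Ctsl rose by 1.15 ± 0.056 there (adjusted p = 8.5e-08), and Lgmn rose by 0.78 ± 0.21 in Irf8KO MDPs (adjusted p = 0.011) but was at least 5.37-fold lower in Irf8KO cMoPs. Relb and Nfkbia, genes of the NF-kB system, rose by 1.47 ± 0.14 and 0.97 ± 0.053 in Irf8KO cMoPs (adjusted p = 7.7e-06 and 1.2e-07), and the kinase gene Map3k8 was at least 2.36-fold higher in Irf8KO MDPs.

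In 32Dcl.3 cells 27 of 54 pathway genes rose and 20 fell with C/EBPalpha (median 0.124), 31 rose and 6 fell with IRF8 (median 0.24), and 34 rose and 15 fell with both (median 0.353). The shares over all genes were 31.6% and 47.1% with C/EBPalpha, 22.7% and 25.3% with IRF8, and 38% and 46.8% with both. Both factors against C/EBPalpha gave 33 higher and 15 lower, against 34.5% and 37.9% of all genes. Both against IRF8 gave 28 and 18, against 36.1% and 46.1%. The interaction was positive for 22 and negative for 18, against 23.8% and 31.8%. Cd14, the lipopolysaccharide coreceptor, rose by 3.11 ± 0.078 with C/EBPalpha and 1.77 ± 0.078 with IRF8 (adjusted p = 6.6e-12 and 5.1e-09). Lbp, which hands lipopolysaccharide to CD14, and Cd36, a scavenger receptor, were at least 13.6-fold and at least 6.16-fold higher with C/EBPalpha, and at least 5.62-fold and at least 2.55-fold lower with both factors than with C/EBPalpha. Ctss rose by 5.74 ± 0.057 with IRF8 and 6.93 ± 0.057 with both factors (adjusted p = 1.5e-14 and 5.1e-16). Slc15a3, a lysosomal transporter, was at least 18.6-fold higher with IRF8 and at least 60.9-fold higher with both. Tlr12 fell by 2.48 with C/EBPalpha (-2.48 ± 0.068, adjusted p = 1.3e-11), as did Nfkb1 by 1.26 (-1.26 ± 0.053, adjusted p = 4.6e-10), while Irak3, an inhibitory kinase, fell by 0.90 with IRF8 (-0.90 ± 0.037, adjusted p = 2.4e-09). All 4 tested proteases of the list rose with IRF8 and with both factors.

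Markers of other cells moved with the groups. The 7 neutrophil markers with a probe summed to a scaled signal of 6.02 to 7.15 in WT and 85.7 to 88.0 in Irf8KO MDPs, 32.5 to 32.6 in WT and 539 to 561 in Irf8KO cMoPs, and 62.8 to 64.0 with empty vectors, 2883 to 2924 with C/EBPalpha, 40.6 to 41.1 with IRF8 and 1714 to 1720 with both factors. Of the 6 tested, 2 rose and 3 fell in Irf8KO MDPs and 6 rose in Irf8KO cMoPs, and all 7 tested rose with C/EBPalpha and with both factors. B cells also express Ly86 and Cd180. Of the 9 B cell markers, which summed to 37.6 to 38.5 in WT and 54.5 to 55.8 in Irf8KO MDPs and to 15.8 to 16 and 16.2 in cMoPs, 3 to 5 were above background on each progenitor array. All 4 that were tested rose in Irf8KO MDPs (median 2.16), among them the pre-B cell receptor genes Vpreb1, with a mean of 1.12 in WT and 9.88 in Irf8KO, and Igll1, and the adaptor gene Blnk, at 1.13 and 3.92. In Irf8KO cMoPs 2 of the 4 rose, Vpreb1 and Igll1, and 2 fell, Blnk and Cd79b. Ms4a1 and Ebf1 were above background on none of them and Pax5 on 1 Irf8KO cMoP array. The 7 plasmacytoid dendritic cell markers, of a cell type known for TLR7 and TLR9, summed to 154 to 163 in WT and 216 to 220 in Irf8KO MDPs, and to 234 to 241 and 252 to 265 in cMoPs. Of the 5 tested, 2 rose and 0 fell in Irf8KO MDPs and 2 rose and 1 fell in Irf8KO cMoPs. In 32Dcl.3 cells the 7 summed to 283 to 296 with empty vectors, 399 to 403 with C/EBPalpha, 291 to 305 with IRF8 and 603 to 627 with both factors. Of the 6 conventional dendritic cell markers 1 to 2, and of the 6 macrophage markers 2 to 3, were above background on each progenitor array, and all 5 monocyte markers were on every one. In 32Dcl.3 cells the monocyte markers summed to 17.1 to 17.6 with empty vectors and 39.6 to 40.8 with C/EBPalpha. They summed to 84.6 to 85.3 with IRF8 and 169 to 172 with both factors. The macrophage markers summed to 44.3 to 44.8, 16.9 to 18.3, 68.5 to 69.5 and 32.6 to 32.8 in the same order. Of 4 tested markers of the line, 4 rose with C/EBPalpha, 4 fell with IRF8, and 2 rose and 1 fell with both. The part of such cells in the changes above was not tested.

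Over the 8 group means, each centred on its slide, the genes most like Tlr4 by Pearson correlation were Oscp1 (r = 0.996), Ffar2 (0.981) and Prss57 (0.978), among 2602 candidate genes that varied. The nearest to Ly96 were Slc35f6 (0.951), Rbm47 (0.939) and Cd28 (0.932), and the nearest to Cd180, partly from values below background, were Ttll9 (0.987), Riok2 (0.974) and Rab3il1 (0.972). Ly86 was not kept in 32Dcl.3 cells and has no such list. Ly96 and Tlr4 correlated at -0.527 and Tlr2 and Tlr6 at 0.913. A high value was not particular to that pair: Tlr2 and Unc93b1 were at 0.897, Tlr6 and Unc93b1 at 0.877 and Tlr4 and Tlr7 at 0.872. The lowest, of Cd180 and Tlr9, was -0.682. Group means share arrays and slides, so these values are descriptions.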

How the data were processed

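Total RNA was labelled with Cy3 by a low-input kit, per the labels' protocols, and hybridised to single-colour Agilent mouse arrays. The deposited scanner files give spot intensity after background subtraction and detrending by Feature Extraction 10.7.3.1, per the file headers. They also give yes or no flags, a unit called other here, that mark spots as outliers, as saturated or as well above background, per the file headers. The authors' deposited series table is in intensity units too: its MDP and cMoP columns equal the scanner values times a constant per array, and its 32Dcl.3 columns share 1 distribution. No source used here names the software of that rescaling.

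Outlier spots were left out, spots of a probe were averaged, and log2 of the signal minus that of the array's 75th percentile was used. A probe entered the fit if both arrays of any of the system's 4 groups had it well above background, and the brightest probe stood for a gene. The fits held 11964 genes (progenitors) and 13339 (32Dcl.3). Symbols came from RefSeq accessions (GRCm38.p6), while the file headers name build mm9: 26762 probes matched 1 symbol, 28919 none and 0 several. Limma 3.58.1 (R 4.3.3) fitted 4 group means over 8 arrays per system, with eBayes and an intensity trend. P-values were two-sided and Benjamini-Hochberg adjusted within each comparison, threshold 0.05. The fit was tested on simulated data. Alternatives covered scaling, background, filter, probe, slide, replicate number and each array left out. Normexp (offset 50) used median spot signals in place of the planned mean signals, which were not analysed here. Same-numbered arrays did not pair (correlations of deviations -0.0615 to 0.0708). The 10 genes, the pathway list and the marker lists were chosen with earlier results of these data known, so no p-value was adjusted over a list. Genes were named by list membership, and the pathway genes by the largest changes in each direction. Ly6c2 and Ly6g had no matched probe. Plots used matplotlib 3.10.9 (Python 3.11.15).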

Additional observations from a re-analysis of the deposited data

Results flagged for a closer look

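Stage and slide cannot be told apart in the stage differences. The Irf8KO effect differed between cMoPs and MDPs by a test of the difference itself for 4 of the 10 genes. It was -1.19 for Ly86, where the Irf8KO cMoP arrays were not above background, -1.08 for Ly96, -0.43 for Tlr2 and -0.21 for Unc93b1 (log2, cMoPs minus MDPs), of which the last did not pass under normexp (-0.15, adjusted p = 0.090). The dimmer Tlr7 probe, which did not stand for the gene, also passed, at 1.40, with no WT array above background. The effect of IRF8 in 32Dcl.3 cells differed with and without C/EBPalpha by the interaction test for 5 genes. It was 0.82 for Ly96, -0.39 for Tlr2, -1.16 for Tlr4, 0.26 for Tlr9 and -0.27 for Unc93b1. The value of Tlr9 turned to -0.12 when scaled to the array median, and that of Unc93b1 did not pass after quantile normalization (-0.15, adjusted p = 0.054).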

How the results depend on the processing

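No total of called genes over both directions, among the 10 or over all genes (pathway totals apart), moved by over 1.5 times under any alternative run, but the counts in each direction did: scaled to the array median, 6 of the 10 fell in Irf8KO cMoPs in place of 3. On the progenitor arrays that median lay below the lowest signal well above background. Some changes that had not passed did so in opposite directions with the scaling. For both factors against IRF8, Tlr4 and Tlr7 passed as higher with the percentile over detected probes and as lower with the array median. The values for Tlr7 were 0.33 and -0.69. Tlr7 for both factors against empty vectors did the same. The sign of Tlr7 for both factors against IRF8 also depended on the array left out. It was 0.196 without array 1 of the cells with both factors and -0.183 without array 2. The Tlr7 interaction, -0.16 ± 0.14, was -0.345 without that array 2. Changes that had passed reversed in 4 cases. Scaling to the array median turned Tlr9 to -0.063 for both factors against C/EBPalpha and to -0.125 for the interaction. Normexp background correction turned Cd180 to 0.129 with C/EBPalpha and to 0.559 with both factors against empty vectors. The same correction, with its offset of 50, gave -3.53 (MDPs) and -4.375 (cMoPs) for the change of Ly86 and Cd180 against Ly96 and Tlr4. The cause was not tested. Leaving out each array in turn, that change stayed between -5.15 and -4.82 in MDPs, -5.81 and -5.43 in cMoPs, and -0.82 and -0.44 for the difference between stages; it was not computed in 32Dcl.3 cells because Ly86 was above background on only 1 of 8 arrays there. With the replicate number as a block, the stage difference of Tlr9 passed (-0.241, adjusted p = 0.0489), and no other call among the 10 genes changed; same-numbered arrays did not deviate together. The depth of these data is 2 arrays per group, and the signals at or near background were those of Ly86 in Irf8KO progenitors and 32Dcl.3 cells, of Cd180 in progenitors and 32Dcl.3 cells with C/EBPalpha, and of Tlr1 in 32Dcl.3 cells.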
